A study of Homo sapiens with 6 samples.

Results

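Tight junctions are the seals between neighbouring epithelial cells, built from membrane proteins that span the gap and from cytoplasmic scaffolds that tie them to actin. Claudins form the strands and set which ions pass. Occludin and tricellulin, which share the MARVEL membrane fold, shape the strands, tricellulin at the corners where cells meet. JAM-A is an immunoglobulin-like adhesion protein, and ZO-1 is the scaffold that binds claudins, occludin and JAM-A through separate domains. In the bladder these junctions are part of the barrier of the urothelium, and a ring of actin anchors them inside the cell.

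The 9 genes described here are OCLN (occludin), MARVELD2 (tricellulin), TJP1 (ZO-1), the claudin genes CLDN1, CLDN3, CLDN4, CLDN7 and CLDN12, and F11R (JAM-A). They were taken by gene symbol, and each matched 1 of the 58233 rows that carry an Ensembl identifier. RNA sequencing had been done on 6 libraries of total RNA from T24, an established human bladder transitional cell carcinoma line. In 3 libraries the cells carried the lentiviral vector (VEC), and in 3 they carried RhoC Q63E, a constitutively active mutant of the small GTPase RhoC (Q63E). Both groups had been transduced with lentivirus and selected with puromycin. The labels do not say whether a line is 1 clone or a pool, or whether replicates came from different cultures. The p-values therefore reflect the variation among the sequenced libraries alone, and that variation may be technical. Whether fewer cells carried a transcript or each cell held less of it cannot be told apart in such bulk RNA.

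Values are the authors' normalized levels, taken here as FPKM (fragments scaled to transcript length and library total), so that levels of different genes can be set side by side. Summed over all rows they came to between 726930 and 769030 per library. The depth behind them is unknown, so counting error cannot be given. RHOC itself, which checks the labels, averaged 227 ± 8.27 in VEC and reached 1746 ± 22.3 with the mutant (mean and SD of 3 libraries). The epithelial keratins KRT7, KRT8 and KRT18 were abundant (507 to 1512 over the 6 libraries). Of 15 urothelial and epithelial markers 7 were tested (by the test described next), of which 5 were higher in Q63E and 0 lower. The shares over all genes tested were 11.3% higher and 14% lower. The markers called higher were KRT7, KRT8, KRT18, KRT19 (5.67 ± 0.393 in VEC and 161 ± 1.85 in Q63E) and PPARG (13.2 ± 0.619 and 21.3 ± 0.250). FOXA1 (3.72 ± 0.860 in VEC and 4.28 ± 0.496 in Q63E) and GATA3 did not pass. GATA3 went the other way, from 1.79 ± 1.40 in VEC to 0.363 ± 0.352 in Q63E, with overlapping groups. Its unadjusted p was 0.0447 and its adjusted p 0.121 in limma. EPCAM, which was not tested, had 0.313 ± 0.0404 in VEC and 1.52 ± 0.202 in Q63E. Defining genes of differentiated urothelium and the epithelial cadherin gene were near or at 0: the uroplakin genes UPK1A, UPK1B, UPK2 and UPK3A did not exceed 0.53 in any library, and CDH1 (E-cadherin) was listed at 0 in all 6. Endothelial markers summed to at most 0.24 per library and leukocyte markers to at most 0.66. Of 10 mesenchymal markers 4 were tested in the same way, of which 2 were higher in Q63E and 1 lower. The intermediate filament gene VIM was lower, at 3212 ± 42.9 in VEC and 2193 ± 92.5 in Q63E (adjusted p = 0.000359). The matrix gene FN1 was higher (938 ± 31.2 and 1364 ± 113, adjusted p = 0.00211), as was the N-cadherin gene CDH2 (33.5 ± 1.41 and 44.0 ± 1.2, adjusted p = 0.00240).

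Of the 9 genes, 6 averaged 1 or more over the libraries and were tested together with all 13346 genes that met this minimum, by limma on log2(value + 1) with Benjamini-Hochberg adjustment and a threshold of 0.05. OCLN, TJP1 and CLDN12 rose in Q63E, CLDN4 fell, and CLDN1 and F11R did not pass. Over all genes tested 25.3% passed, 11.3% higher and 14% lower. CLDN4 met the minimum only through VEC, the group in which it was higher, so the 4 calls among 6 are given as an account of these genes and not as support for a shared change. MARVELD2, CLDN7 and CLDN3 lay below the minimum and were not tested. The 3 libraries of one group lay wholly on one side of the other group's for 6 of the 9 genes, 5 higher and 1 lower in Q63E. Over all genes tested this was so for 43.9%, with 21.1% higher and 22.8% lower. That share leaves out genes below the minimum, whereas the 9 include MARVELD2 (1 of the 5 higher), CLDN7 and CLDN3.

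**Figure D1:**
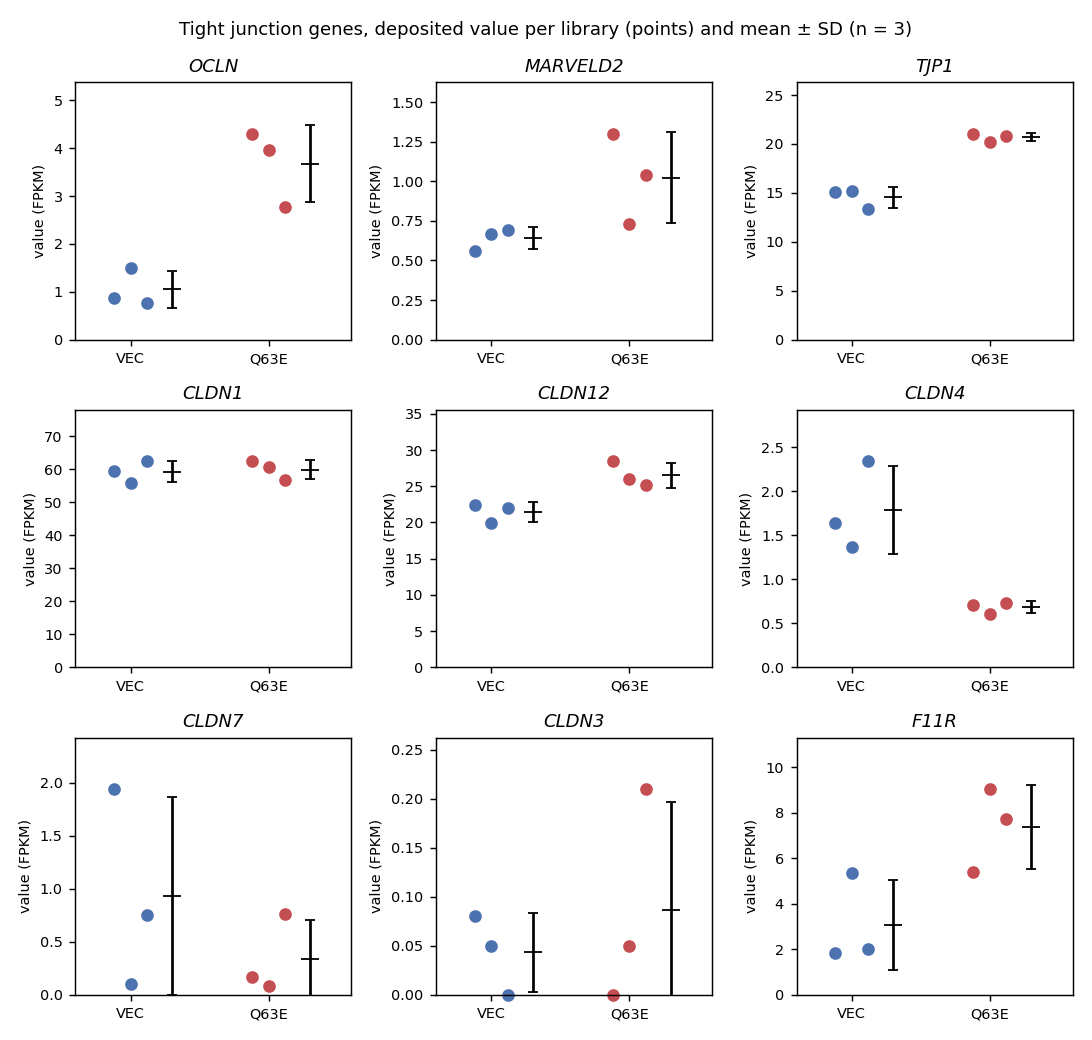
Deposited value (FPKM, linear axis from 0) of each of the 9 genes in the 3 VEC libraries (blue) and the 3 Q63E libraries (red), with the mean and SD of each group in black (bars are cut at 0). OCLN, MARVELD2, TJP1, CLDN12 and F11R are higher in all 3 Q63E libraries than in any VEC library, CLDN4 is lower, and CLDN1, CLDN7 and CLDN3 overlap.

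The genes spanned a wide range of levels, and their order changed below the first 4 places. In VEC the order by mean was CLDN1 (59.3 ± 3.21), CLDN12 (21.5 ± 1.35), TJP1 (14.5 ± 1.04), F11R (3.07 ± 1.98), CLDN4 (1.78 ± 0.501), OCLN (1.05 ± 0.394), CLDN7 (0.930 ± 0.933), MARVELD2 (0.640 ± 0.0700) and CLDN3 (0.0433 ± 0.0404), each as FPKM with SD and n = 3. The ranges of neighbours in this order overlapped from F11R down to MARVELD2, so within these 5 no gene differed from its neighbour beyond the spread, whereas MARVELD2 and CLDN3 did not overlap. In Q63E the first 4 places were the same, but OCLN (3.68 ± 0.803) came next and no longer overlapped with its neighbours. MARVELD2 (1.02 ± 0.285), CLDN4 (0.683 ± 0.0643), CLDN7 (0.337 ± 0.369) and CLDN3 (0.0867 ± 0.110) followed, each overlapping the next. CLDN1 made up 57.7% ± 1.97 of the summed value of the 9 genes in VEC and 49.8% ± 0.802 in Q63E. Its own level in Q63E was 59.9 ± 2.96, close to that in VEC, while the sum went from 103 ± 2.35 to 120 ± 4.04.

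OCLN (ENSG00000197822) encodes occludin, the first membrane protein found in tight junctions, and lies at chr5:69492292-69558104 on the plus strand of GRCh38. Its values were 0.88, 1.5 and 0.77 in VEC replicates 1, 2 and 3, and 4.30, 3.96 and 2.77 in Q63E replicates 1, 2 and 3. The groups did not overlap, and the lowest Q63E library was above the highest VEC library. The group means differed 3.50-fold, and the log2 fold change of value + 1, which understates the change of such a low gene, was 1.19 (SE 0.203, adjusted p = 0.00753 in limma). It passed under all 14 alternative settings tried, with log2 fold changes from 1.06 to 1.74. A partial copy of the gene, the pseudogene OCLNP1, lies on the same chromosome, and reads could be shared between the copies. Its row had 0.32, 1.2 and 0.84 in VEC and 0.49, 0.51 and 1.11 in Q63E, with overlapping groups.

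MARVELD2 (ENSG00000152939, chr5:69415065-69444330, plus strand), the tricellulin gene, ends 48.0 kb before OCLN begins. It had 0.56, 0.67 and 0.69 in VEC and 1.30, 0.73 and 1.04 in Q63E. All 3 Q63E libraries were above the VEC libraries, although Q63E replicate 2 exceeded the highest VEC library by only a small step. Because its mean was below 1 it was not tested. With the minimum mean lowered to 0.1 it had a log2 fold change of 0.29 and did not pass (adjusted p = 0.234 in limma).

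Of 10 further membrane protein genes of tight junctions outside the 9, only LSR and CLMP met the minimum mean. LSR, which encodes the angulin that brings tricellulin to cell corners, rose from 1.58 ± 0.497 to 2.94 ± 0.223 (SD, n = 3 each, log2 fold change 0.63, adjusted p = 0.0378 in limma). This call was lost under 7 of 14 alternatives, among them leaving out any library other than VEC replicate 1 (adjusted p from 0.0759 to 0.109). CLMP, a JAM-like adhesion gene, fell. It had 7.45, 7.83 and 6.55 in VEC and 3.89, 2.25 and 2.44 in Q63E, with no overlap (log2 fold change −1.12, SE 0.173, adjusted p = 0.00521), and it passed under all 14 alternatives. MARVELD3 did not exceed 0.16 in any library and ILDR1, another angulin gene, did not exceed 0.08. CXADR, the coxsackievirus and adenovirus receptor gene of tight junctions, was listed at 0 in all 6. This list of 10 membrane protein genes therefore had 1 risen and 1 fallen of 2 tested (median −0.25).

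TJP1 (ENSG00000104067, chr15:29699367-29968865, minus strand) encodes ZO-1, the scaffold beneath the membrane strands. Its values were 15.11, 15.16 and 13.33 in VEC and 21.04, 20.20 and 20.85 in Q63E. Both groups were tight and lay well apart. The means differed 1.42-fold, with a log2 fold change of 0.48 (SE 0.066, adjusted p = 0.00324 in limma), and the rise passed under all 14 alternatives. The related scaffold gene TJP3 (ZO-3) was above 0 in 1 VEC library only, at 0.04.

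CLDN1 (ENSG00000163347, chr3:190305701-190322475, minus strand), a barrier-forming claudin, was the most abundant of the 9 genes. It had 59.56, 56.02 and 62.43 in VEC and 62.43, 60.72 and 56.66 in Q63E. The ranges nearly coincided. The log2 fold change was 0.01 (SE 0.057, adjusted p = 0.879 in limma), with a 95% interval from −0.12 to 0.15. A change as large as that of TJP1 (0.48) lies outside this interval.

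CLDN12 (ENSG00000157224, chr7:90383721-90513402, plus strand) encodes an atypical claudin that lacks the C-terminal motif by which other claudins bind ZO proteins. It had 22.43, 19.94 and 22.07 in VEC and 28.44, 25.97 and 25.17 in Q63E. The groups did not overlap, and the means differed 1.23-fold (log2 fold change 0.29, SE 0.070, adjusted p = 0.0256 in limma). The call was lost under 5 of 14 alternatives: without VEC replicate 2 (adjusted p = 0.0652) or 3 (0.0572), without Q63E replicate 1 (0.0754) or 2 (0.0594), and with no filter on low values (0.0507). Over all 14 alternatives the adjusted p ran from 0.0188 to 0.0754. Exons of GTPBP10 and CDK14 overlap the annotated CLDN12 gene on the same strand, so reads can be shared. GTPBP10 had 13.91, 10.21 and 10.22 in VEC and 8.75, 10.52 and 12.59 in Q63E, with overlapping groups. CDK14 had 6.26, 4.50 and 5.22 in VEC and 4.28, 3.25 and 2.73 in Q63E. The CDK14 row was thus lower in every Q63E library than in any VEC library, opposite to CLDN12. Whether reads were assigned differently between these rows was not tested.

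CLDN4 (ENSG00000189143, chr7:73799542-73832693, plus strand), a claudin of tight epithelia and a receptor for a clostridial toxin, moved the other way. Its values were 1.64, 1.37 and 2.34 in VEC and 0.71, 0.61 and 0.73 in Q63E. The highest Q63E library was below the lowest VEC library, and the VEC mean was 2.61-fold the Q63E mean. The log2 fold change was −0.71 (SE 0.184, adjusted p = 0.0334 in limma). The call was lost under 7 of 14 alternatives, namely with no filter on low values (adjusted p = 0.0545), with the replicate number as a block (0.0748), and when any library other than VEC replicate 2 was left out (0.0699 to 0.0904). Over all 14 the adjusted p ran from 0.0164 to 0.0904.

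CLDN3 (ENSG00000165215, chr7:73768997-73770270, minus strand), the claudin gene next to CLDN4 and also a toxin receptor, was barely measured. It had 0.08 and 0.05 in VEC replicates 1 and 2 and was listed at 0 in replicate 3. In Q63E it was listed at 0 in replicate 1 and had 0.05 and 0.21 in replicates 2 and 3. CLDN7 (ENSG00000181885, chr17:7259903-7263983, minus strand), a claudin of many epithelia, had 1.94, 0.10 and 0.75 in VEC and 0.17, 0.08 and 0.76 in Q63E. Its spread within VEC was as large as its mean, and with the minimum mean lowered to 0.1 it did not pass (log2 fold change −0.45, adjusted p = 0.483). Exons of ELP5 on the opposite strand overlap CLDN7. ELP5 was at 29.18 to 37.47 over the 6 libraries, far above CLDN7, and since the authors' values do not state a strand, how many of the CLDN7 reads belong to ELP5 was not tested.

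The 250 bases before each annotated start of the 9 genes were searched for the E-box CAGGTG, the core site of SNAI and ZEB factors, on both strands. Start sites came from RefSeq on GRCh38.p14, and 8 of the 9 genes had at least 1 window, 13 windows in all. F11R had none. The E-box was found in 4 of the 13 windows, in both of OCLN, 1 of 2 of CLDN7 and 1 of 4 of TJP1. Of 35116 such windows of all genes 17.49% held it. The windows of CLDN1, CLDN3, CLDN4, CLDN12 and MARVELD2 did not. The stretches of 30 bases that hold the matches are shown, 5′ to 3′ on the strand of the gene, with CAGGTG or its complement CACCTG in capitals. They are shown because they are the matches to a motif of repressors known to act on junction genes.
OCLN, first start, chr5:69492502-69492531, plus strand: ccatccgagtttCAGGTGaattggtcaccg
OCLN, second start, chr5:69492645-69492674, plus strand: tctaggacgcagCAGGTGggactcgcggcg
TJP1, most upstream start, chr15:29969120-29969149, minus strand: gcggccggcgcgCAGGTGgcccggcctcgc
CLDN7, downstream start, chr17:7262635-7262664, minus strand: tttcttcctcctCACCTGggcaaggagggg
CLDN7, downstream start, chr17:7262596-7262625, minus strand: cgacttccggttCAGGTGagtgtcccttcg
CLDN7, downstream start, chr17:7262481-7262510, minus strand: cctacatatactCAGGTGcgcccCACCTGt

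OCLN has 2 separate matches, 1 in each window: the first begins 33 bases before the first start, and the other 133 bases before the second start. In TJP1 it begins 88 bases before the start. The downstream start of CLDN7 has 4 matches, which begin 174, 135, 20 and 9 bases before it, the last 2 in 1 of the stretches shown. The genes that rose include 2 with a match (OCLN and TJP1) and 1 without (CLDN12). This tally is per gene, whereas the 17.49% given for all genes is per window. Genes with more windows have more places for a match, and no share per gene was taken. In TJP1 only the most upstream of 4 starts had a match. The bases after that start were not found in a GENCODE transcript of TJP1, unlike those of its other starts. CLDN4, which fell, had no match, and CLDN7, with 4 matches, was not tested and overlapped between the groups. By GENCODE, the windows of the first OCLN start and of the downstream CLDN7 start lie wholly in annotated exons of these genes (250 of 250 bases each), while that of TJP1 lies outside any. A match is only a description of these letters and not a binding site. Other motifs searched the same way were the GC box GGGCGG (42.64% of all windows), the TEAD motif GGAATG (11.89%) and the AP-1 motif TGAGTCA (4.2%). CLDN4 had 1 AP-1 match, the only such match among the 13 windows, none of which held the TEAD motif.

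**Figure D2:**
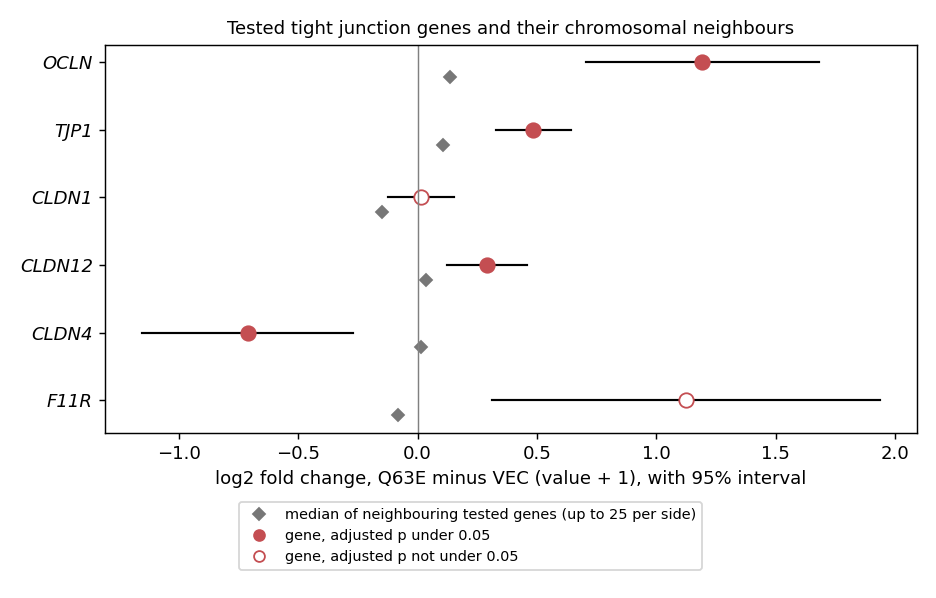
Log2 fold change of value + 1 (Q63E minus VEC) of the 6 tested tight junction genes with 95% intervals from limma that are not adjusted for multiple tests; filled circles have an adjusted p under 0.05, and grey diamonds show the median of up to 25 tested genes on each side on the same chromosome. OCLN (1.19), TJP1 (0.48), CLDN12 (0.29) and CLDN4 (−0.71) lie away from their neighbours' medians of 0.14, 0.11, 0.04 and 0.01.

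F11R (ENSG00000158769, chr1:160995211-161021348, minus strand), the JAM-A gene, had 1.85, 5.35 and 2.00 in VEC and 5.41, 9.05 and 7.72 in Q63E. VEC replicate 2 stood apart from the other VEC libraries and lay just under the lowest Q63E library. The means differed 2.41-fold, but the log2 fold change of 1.12 (SE 0.338) did not pass (adjusted p = 0.0535 in limma). Without VEC replicate 2 it was 1.5 and passed (adjusted p = 0.00879).

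The annotation holds a second protein-coding gene model on the same strand, ENSG00000270149 (AL591806.3), that covers 36.6% of the F11R exon bases. Of that model's own exon bases 87.7% are shared with F11R. Its row had 2.56, 0.13 and 1.41 in VEC and 3.47, 1.03 and 1.14 in Q63E. In each group the library with the highest F11R value had the lowest value of this row, and the library with the lowest F11R value the highest. Summed over both rows the values were 4.41, 5.48 and 3.41 in VEC and 8.88, 10.08 and 8.86 in Q63E. The sum put VEC replicate 2 within reach of the other VEC libraries and left a clear gap between the groups. It went from 4.43 ± 1.04 to 9.27 ± 0.699 (2.09-fold, log2 fold change 0.93, SE 0.150, adjusted p = 0.00599 in limma). This sum was chosen after the values were seen, and adding levels of models of unequal length is only an approximation of their joint level.

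**Figure D3:**
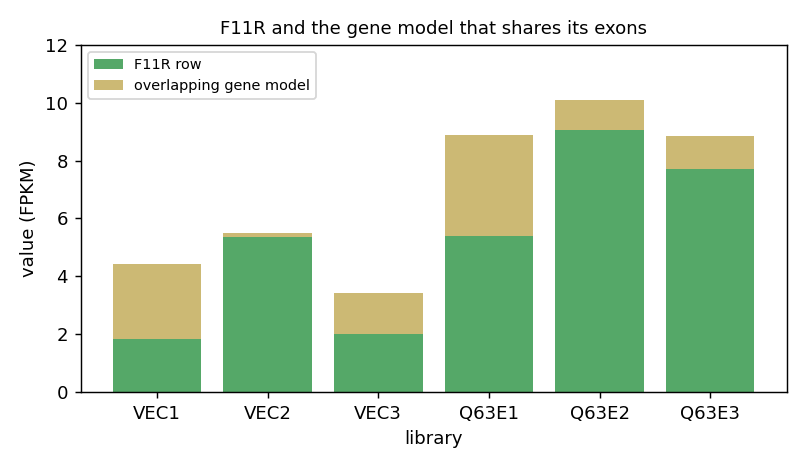
Deposited values (FPKM, linear axis from 0) of the F11R row (green) and of the gene model that shares its exons (tan), stacked for each of the 6 libraries. The share of the 2 rows differs between libraries of 1 group, most in VEC replicate 2 (5.35 and 0.13), while the stacked totals of 3.41 to 5.48 in VEC and 8.86 to 10.08 in Q63E do not overlap.

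In several parts of the genome of these cells neighbouring genes had moved together. Each of the 6 genes was therefore set beside the 25 tested genes on either side, 50 in all. TJP1 had 41, because fewer than 25 tested genes lay on 1 side of it on its chromosome. OCLN lay in a stretch with a median log2 fold change of 0.14, with 36 of 50 genes above 0. After subtraction of this median it was at 1.06 (adjusted p = 0.0164). The stretch around TJP1 had 0.11 and TJP1 was then at 0.38 (adjusted p = 0.0117). CLDN12 was at 0.26 (adjusted p = 0.0484) and CLDN4 at −0.72 (adjusted p = 0.0396), and their neighbours' medians were close to 0. CLDN1 lay among genes of which 38 of 50 were below 0 (median −0.15), and after subtraction it was at 0.16 (adjusted p = 0.104). The same 4 genes passed after subtraction as before. In every subtraction given here the standard error of the gene was left unchanged, as if the median were known exactly. The adjusted p-values after subtraction may therefore be too small.

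The 9 genes hold only part of the claudin transcripts of T24. The most abundant claudin was CLDN11, known from myelin and from the Sertoli cells of the testis. It had 221.84, 233.82 and 215.75 in VEC and 194.90, 171.19 and 193.24 in Q63E. CLDN11 fell, with a log2 fold change of −0.26 (adjusted p = 0.0219 in limma). This call was lost under 6 of 14 alternatives, among them leaving out VEC replicate 1 (adjusted p = 0.0547) or 2 (0.0653). Of the summed value of 24 claudin genes CLDN11 held 71.6% ± 2.11 in VEC and 65.9% ± 3.04 in Q63E, CLDN1 19.0% ± 1.26 and 21.2% ± 1.05, and CLDN12 6.87% ± 0.491 and 9.38% ± 0.403 (each with the SD of 3 libraries). The summed claudin value was 313 ± 3.97 in VEC and 283 ± 9.69 in Q63E, with no overlap between the groups. Of the 24 claudin genes, 16 stayed below 1 in every library and 5 of these were listed at 0 in all 6.

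**Figure D4:**
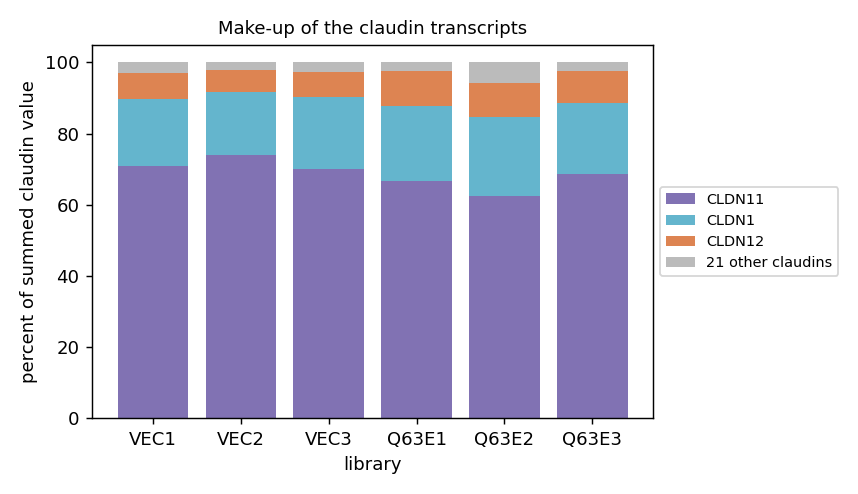
Percent of the summed value of 24 claudin genes held by CLDN11, CLDN1, CLDN12 and the other 21 in each library (stacked bars, axis from 0). CLDN11 holds 62.6% to 73.9% in all 6 libraries, and the CLDN12 share is higher in every Q63E library (8.93% to 9.71%) than in every VEC library (6.31% to 7.16%).

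Among the 19 claudin genes outside the 9, 3 were tested. None was called higher in limma (0 at an unadjusted p under 0.05 too), and CLDN11 was the 1 called lower. CLDN15, a pore-forming claudin, was at 3.18 ± 0.381 and 3.21 ± 0.275. CLDN18, a claudin of stomach and lung that is named here because of its spread, had 0.80, 0.12 and 0.10 in VEC and 1.63, 10.10 and 0.23 in Q63E. Its high mean in Q63E came mainly from replicate 2, and it did not pass (adjusted p = 0.250 in limma). The median log2 fold change of the 3 tested was 0.01, against −0.0023 for all genes tested.

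The cytoplasmic plaque, which links the strands to actin and to signalling, holds TJP1 and many other scaffolds. Of 14 further scaffold and plaque genes 10 were tested, and none was called higher in limma (0 at an unadjusted p under 0.05 too). The 1 gene called lower was USP53, which encodes a tight junction protein of the ubiquitin protease family and is named here after its values were seen. It had 14.89, 16.29 and 11.57 in VEC and 7.57, 6.97 and 6.51 in Q63E (log2 fold change −0.92, adjusted p = 0.00368). Its neighbours were also lower (median −0.41), and after subtraction its log2 fold change was −0.51 (adjusted p = 0.0393). AMOTL2, an angiomotin-like scaffold and the most abundant of these genes, was at 59.5 ± 6.43 in VEC and 62.5 ± 1.34 in Q63E and did not pass (adjusted p = 0.531). SYMPK, which encodes symplekin, a protein of the plaque and of the nucleus, was at 24.7 ± 1.42 and 23.6 ± 0.626 (adjusted p = 0.457). The median log2 fold change of the 10 tested was 0.02.

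The polarity complexes place tight junctions at the border of the apical and lateral membrane, with the Crumbs complex on the apical side and the Par complex at the junction. Of 13 such genes 10 were tested, of which 3 rose and 1 fell in limma, and their median log2 fold change was 0.42. Over all genes tested 11.3% rose and 14% fell. PRKCZ, an atypical protein kinase C of the Par complex, had 18.41, 17.44 and 18.70 in VEC and 27.06, 26.71 and 27.60 in Q63E (log2 fold change 0.55, adjusted p = 0.000683). The groups lay far apart relative to their spread. PALS1, a scaffold of the Crumbs complex, had 13.53, 13.83 and 13.09 in VEC and 19.49, 17.78 and 20.19 in Q63E (log2 fold change 0.48, adjusted p = 0.00327). Both rises passed under all 14 alternatives. PATJ, the multi-PDZ partner of PALS1, had 2.40, 2.43 and 4.66 in VEC and 5.74, 5.91 and 5.41 in Q63E (log2 fold change 0.73, adjusted p = 0.0470). Its call was lost under 10 of 14 alternatives, among them leaving out any library other than VEC replicate 3, and over all 14 the adjusted p ran from 0.00481 to 0.123. PARD3, the scaffold of the Par complex, went down. It had 18.42, 21.10 and 19.45 in VEC and 13.08, 13.70 and 14.27 in Q63E (log2 fold change −0.49, adjusted p = 0.00359). It lies among genes with a median of −0.23, and after subtraction it was at −0.26 (adjusted p = 0.0432).

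Junction-linked kinases, GTPases and genes of myosin regulation and membrane traffic were mixed: of 13, 12 were tested, and 2 rose and 2 fell (median log2 fold change 0.02). The shares over all genes tested were 11.3% higher and 14% lower. WNK4, a kinase that phosphorylates claudins, rose from 27.0 ± 1.75 to 34.1 ± 0.875 (adjusted p = 0.00864). ROCK2, a kinase that drives myosin contraction, rose from 13.7 ± 0.626 to 16.1 ± 0.0700 (adjusted p = 0.0301), a call lost under 7 of 14 alternatives, among them leaving out any library other than VEC replicate 2 (0.0723 to 0.0843). Their neighbours had medians of 0.13 and 0.09, and after subtraction neither passed (adjusted p = 0.0592 and 0.152). MICALL2, an adaptor for the return of occludin to the membrane, fell from 10.2 ± 1.39 to 6.52 ± 0.660 (adjusted p = 0.0140), a call lost under 1 of 14 alternatives, the replicate block (0.0566). CDC42, a GTPase that acts with the Par complex, fell from 116 ± 4.38 to 103 ± 0.766 (adjusted p = 0.0260), a call lost under 8 of 14 alternatives, among them quantile normalization of the log2 values (adjusted p = 0.0778) and leaving out any library other than VEC replicate 2 (0.0529 to 0.0744).

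**Figure D5:**
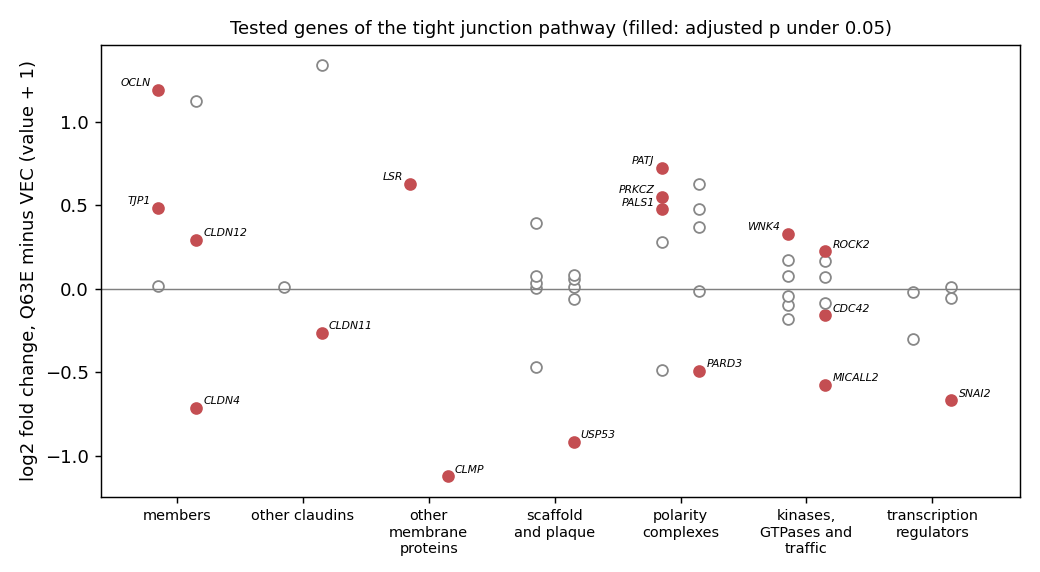
Log2 fold change of value + 1 (Q63E minus VEC) of every tested gene of the 9 and of the 6 further lists of tight junction and regulator genes; filled and named points have an adjusted p under 0.05 in limma. Named points lie above and below 0 in the members, the other membrane proteins, the polarity complexes and the list of kinases, GTPases and traffic genes.

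SNAI2, a zinc finger repressor known to shut down epithelial junction genes by binding E-boxes, was lower in Q63E. It had 48.28, 49.14 and 48.10 in VEC and 28.00, 33.74 and 29.02 in Q63E, with a wide gap between the groups (log2 fold change −0.67, SE 0.073, adjusted p = 0.00140 in limma). Its neighbours had a median of −0.20, and after subtraction it was at −0.46 (adjusted p = 0.00802). It was the 1 of 5 tested genes that fell in a list of 12 transcription regulators of epithelial junctions. None of the 5 was called higher (0 at an unadjusted p under 0.05), 2 were lower at an unadjusted p under 0.05, and their median was −0.06. The second of these, ZEB1, another repressor that binds E-boxes, was at 8.46 ± 1.35 in VEC and 6.64 ± 0.536 in Q63E and did not pass (log2 fold change −0.30, adjusted p = 0.128). KLF5, an activator in epithelia, was at 18.9 ± 0.515 and 19.0 ± 0.883 (adjusted p = 0.919). GRHL2, known as an activator of claudin genes, and TWIST1, a repressor of epithelial genes, were listed at 0 in all 6 libraries.

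The protein-coding genes whose log2 values followed OCLN most closely over the 6 libraries were NBPF15 (Pearson r = 0.997), ZSWIM1 (0.997) and ZNRF1 (0.997), and 230 genes had an r above 0.95. With 2 groups of 3 libraries a gene that differs clearly between the groups tends to score highly, and all the points share these libraries, so the coefficients are a description. NBPF15 had 23.99, 24.83 and 23.85 in VEC and 28.42, 28.02 and 26.90 in Q63E. Like OCLN it was highest in replicate 2 within VEC and lowest in replicate 3 within Q63E. ZSWIM1, at 6.73 ± 0.330 in VEC and 8.09 ± 0.333 in Q63E, did not pass (adjusted p = 0.0654 in limma).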

How the data were processed

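Each library came as its own table, in which the authors deposited a single value for each of 58882 rows. No unit is named by headers or labels. The deposited numbers were read as FPKM because they have 2 decimals, library sums that differ, and short mitochondrial genes at the top. Per the submitters' processing notes, HISAT2 2.1.0, Bowtie2 and GRCh38.p10 were used, without further detail. For the read counter and the annotation, the sources used here give no name. A search for whole-read steps placed at best 25.5% to 27.8% of low values within 0.1 of a whole number, where 20% would fall without steps, and counts were therefore not rebuilt.

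The 649 loci without a gene name (0.274% to 0.511% of a library's sum) were not tested. Genes with a mean of 1 or more were fitted with limma 3.58.1 (eBayes with trend, R 4.3.3) on log2(value + 1) with group as the only term over all 6 libraries, two-sided. Symbols were matched by Ensembl identifier (57392 rows), and positions came from GENCODE on GRCh38. Alternatives were a pseudocount of 0.1, a minimum mean of 0.1 or none, values rescaled to the library sum, quantile normalization, a replicate block, eBayes without trend, each library left out, and subtraction of the neighbours' median. The fit was also run on simulated data with independent normal noise drawn from its own variances. Such a run checks the code and cannot show how the fit handles the counting error of low values.

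The 9 genes, the lists and the tests were chosen with earlier results of these data known. Beside the 9 and RHOC, the text names at most 4 passing genes per list (those that changed most), or the 2 most abundant if fewer than 2 passed, and the 3 protein-coding genes most like OCLN. USP53, CLDN18, ZEB1, the marker genes, genes at or near 0 and genes with overlapping exons were added after their values were seen. One gene of the scaffold list is not reported here.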

Additional observations from a re-analysis of the deposited data

How the results depend on the processing

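OCLN, TJP1, RHOC, CLMP, PRKCZ, PALS1, PARD3 and SNAI2 kept their direction and their calls under all 14 alternatives. Among the 9 genes, 3 were called higher, with 2 to 3 when 1 library was left out. The 1 called lower (CLDN4) became 0 with no filter on low values and 0 with the replicate block, and 0 to 1 when 1 library was left out. F11R passed with values rescaled to the library sum (adjusted p = 0.0499), with quantile normalization (0.0494), with the replicate block (0.0279), without VEC replicate 2 (0.00879) and when summed with the overlapping row (0.00599), and not under the other 10 of 15 alternatives. The 6 other tight junction lists had 3, 2, 10, 10, 12 and 5 tested genes. Over all genes tested 11.3% were called higher and 14% lower. From the lists 6 genes were called higher and 7 lower. With 1 library left out these were 3 to 4 and 5 to 7. With the replicate block they were 3 and 4, and over all genes 942 in place of 1510 were called higher. Without 1 library each, the genes called higher over all ran from 994 (without Q63E replicate 3) to 1153. After subtraction of the neighbours' median, an alternative extended to the lists after seeing the data, 3 of the list genes were called higher and 7 lower. The cause of these shifts was not tested. The labels do not say whether same-numbered libraries were paired. Deviations of same-numbered libraries from their group means correlated at −0.0419, −0.00866 and −0.0249, which cannot settle this. Rescaling moved the median log2 fold change of all genes to at most 0.0312, and the share of calls that were higher from 44.6% to 53.4% with values rescaled to the library sum. Without counts, the depth behind the low values of CLDN3, CLDN7 and MARVELD2 is unknown.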
